A study of Mus musculus with 24 samples.

Results

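Chemokines are small secreted proteins that guide leukocytes along a concentration gradient, and 10 of them were followed here at the transcript level in AML-12 cells, a line derived from mouse hepatocytes. The 10 genes were chosen by name from 55487 in the count table, and comprised *Ccl2*, *Ccl7*, *Ccl9* and *Ccl20* of the CC family, *Cxcl1*, *Cxcl2*, *Cxcl5*, *Cxcl12* and *Cxcl16* of the CXC family, and *Cx3cl1*. *Ccl9* was picked because it had one of the largest falls after *Bmal1* silencing and after *Chrebp* silencing, each against the control esiRNA. Its values in those comparisons, and in every other comparison that uses the same libraries, are therefore given as a description without a test. The remaining members were listed with results of these data known, and which values led to them is not stated in the sources used here, so the numbers of members called are descriptions too.

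All 24 libraries came from cultures of this 1 line, in 6 groups of 4. BSA received the albumin carrier and PAL received palmitate at 0.25 mM, both without esiRNA. The other 4 groups received the same palmitate and, for the last 24 h, esiRNA with lipofectamine. In CON the esiRNA was directed at *Egfp* and dosed at 200 nM, in BMAL1 it was directed at *Bmal1* and in CHREBP at *Chrebp*, at 100 nM each, and BOTH combined the 2 silencing reagents at 200 nM in total. The study's steatosis medium had no dexamethasone and contained charcoal/dextran-treated serum, and whether BSA cells were kept in that medium is not stated in the sources used here. CON had a larger dose than BMAL1 and CHREBP, so the target and the dose cannot be told apart in those comparisons, whereas BOTH and CON had equal doses, as did BMAL1 and CHREBP. Library names are plate positions in which the column changed with transfection and with *Chrebp* esiRNA, and the row with palmitate and with *Bmal1* esiRNA, so position and treatment cannot be told apart. The labels do not say whether the 4 libraries of a group came from separate experiments, so the tests measure the spread between these wells or preparations only.

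In the liver, chemokines of hepatocytes and resident macrophages recruit monocytes, neutrophils and lymphocytes. *Ccl2* and *Ccl7* encode ligands of CCR2 that draw monocytes, *Ccl9* encodes a CCR1 ligand that draws myeloid cells, and *Ccl20* encodes the ligand of CCR6 on lymphocytes and dendritic cells. *Cxcl1*, *Cxcl2* and *Cxcl5* encode CXCR2 ligands that attract neutrophils. *Cxcl12* encodes the CXCR4 ligand that retains progenitors and lymphocytes, and *Cxcl16* and *Cx3cl1* encode membrane-anchored ligands of CXCR6 and CX3CR1 that are shed by the proteases ADAM10 and ADAM17. Many of these genes are classical targets of NF-κB, a dimeric factor that is held in the cytoplasm by IκB proteins until an inflammatory signal frees it.

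Promoter sequences are shown for the 4 members whose start region held a match to the κB consensus, the DNA pattern bound by NF-κB. They were taken from a set of RefSeq promoters on GRCm38.p6. The set used here held 6 of the 10 genes, *Ccl9*, *Ccl20*, *Cxcl1*, *Cxcl2*, *Cxcl12* and *Cx3cl1*, and the others were not searched. Each line runs 5′ to 3′ on the strand of the gene, up to the base before the GENCODE gene, with the κB match in capitals. *Cxcl1* is shown from chr5:90891095-90891240 (+), *Cxcl2* from chr5:90903749-90903870 (+), *Ccl20* from chr1:83116616-83116765 (+) and *Ccl9* from chr11:83578637-83578786 (-).
Cxcl1: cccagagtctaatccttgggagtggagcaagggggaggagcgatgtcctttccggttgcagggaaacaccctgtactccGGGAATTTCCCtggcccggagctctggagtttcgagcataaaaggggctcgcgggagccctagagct
Cxcl2: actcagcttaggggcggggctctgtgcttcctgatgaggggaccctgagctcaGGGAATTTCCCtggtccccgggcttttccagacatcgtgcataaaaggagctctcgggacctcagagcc
Ccl20: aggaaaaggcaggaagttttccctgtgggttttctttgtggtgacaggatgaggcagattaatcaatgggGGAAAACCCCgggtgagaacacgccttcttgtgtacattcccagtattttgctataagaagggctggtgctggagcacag
Ccl9: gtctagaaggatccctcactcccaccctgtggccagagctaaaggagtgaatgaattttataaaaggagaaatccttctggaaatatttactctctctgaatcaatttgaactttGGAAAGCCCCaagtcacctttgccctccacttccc
The same match, 2 overlapping copies of the κB consensus on opposite strands, occurred in *Cxcl1* and *Cxcl2*, and 1 copy each occurred in *Ccl20* and *Ccl9*. Counted from the RefSeq start, the matches ended 61 bases upstream in *Cxcl1*, 87 in *Cxcl2*, 71 in *Ccl20* and 26 in *Ccl9*. Over all 32851 promoters of the table, searched on both strands in the window from 250 bases before to 50 bases after the start, 4.51% held such a match. The *Ccl9* window also held the AP-1 motif TGANTCA, present in 7.81% of promoters. Neither the E-box CACGTG, the motif bound by BMAL1 with CLOCK and present in 7.15% of promoters, nor the ISRE, the interferon response element present in 3.44%, was found in the 6 windows. These are matches of letters in a short window and not measured binding.

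Each library held between 5399700 and 11237474 counts assigned to genes, and 3 counts, the most that a count of 0 allows, corresponded to 0.267 to 0.556 CPM, that is counts scaled to the total of the library (counting error only). The hepatocyte transcription factor *Hnf4a* averaged 1280 normalized counts, that is counts divided by the DESeq2 size factor of the library. Of the 10 macrophage and leukocyte markers examined, *Adgre1*, *Clec4f*, *Cd5l* and *Cd3e* were at 0 in all 24 libraries and *Ptprc* averaged 1.77. The summed level of that list ranged from 112 to 123 CPM in BSA and from 73.6 to 85.5 in PAL, and it rested on *Cd14*, with a mean of 660 normalized counts. Of 5 bile duct markers, *Spp1* averaged 9846, *Krt19* 2635, *Sox9* 1850 and *Krt7* 358, whereas *Epcam* averaged 0.367, with at most 2 counts in a library. The silenced genes were low throughout: *Arntl*, the gene of BMAL1, averaged 44.7 in CON, 26.0 in BMAL1 and 22.8 in BOTH, and *Mlxipl*, the gene of ChREBP, averaged 35.6 in CON, 25.9 in CHREBP and 17.0 in BOTH. Against CON, the adjusted p (Padj) in BOTH was 0.00994 for *Arntl* and 0.00762 for *Mlxipl*. In CHREBP it was 0.593 for *Mlxipl*, and in BMAL1 DESeq2 gave *Arntl* no Padj because its counts were below the independent filter. The log2 fold change of *Arntl* there was -0.78 (SE 0.28, unadjusted p = 0.00496 in DESeq2's Wald test), in overlapping groups.

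Palmitate lowered most of the chemokine transcripts. In PAL against BSA, 8 of the 9 members tested were lower (DESeq2 Wald test, Padj under 0.1 over all 12827 genes tested), where 7.6% of all genes tested were lower. The median log2 fold change of the 9 was -1.34, against 0.0048 over all genes tested. These 8 also had no overlap between the libraries of the 2 groups, which was so, in the lower direction, for 8.24% of all genes tested. For the other comparisons below no such share is given, so a lack of overlap there only describes the libraries. The range was wide, from 68.1% of the carrier level in *Ccl9* to 9.02% in *Cxcl5*. Because these are bulk samples, fewer expressing cells and less RNA per cell cannot be told apart.

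The monocyte attractants fell together. *Ccl2* (ENSMUSG00000035385, chr11:82035571-82037453, +) had normalized counts of 12764, 11378, 11776 and 11899 in BSA and of 5426, 4981, 4532 and 4992 in PAL. Every carrier library lay far above every palmitate library, and the log2 fold change was -1.26 (SE 0.06, Padj = 5.55e-96). A gene model on the other strand, Gm17268, overlaps *Ccl2*, and strand-specific counting is not stated, so reads of the 2 cannot be told apart. *Ccl7* (ENSMUSG00000035373, chr11:82045712-82047525, +) lies next to it. It had 868.4, 857.8, 772.8 and 761.1 in BSA and 330.0, 329.9, 308.6 and 315.6 in PAL, again without overlap (log2 fold change -1.34, SE 0.09, Padj = 1.40e-52). In PAL the mean of *Ccl2* was 41.7% and that of *Ccl7* was 39.4% of the BSA mean.

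*Ccl20* (ENSMUSG00000026166, chr1:83116766-83119167, +), the attractant of CCR6-bearing lymphocytes, fell to a similar degree. It went from 5936, 6200, 6153 and 6479 in BSA to 2063, 3014, 2445 and 2377 in PAL (log2 fold change -1.32, SE 0.08, Padj = 2.44e-54). The second PAL library was the highest of its group and still lay below every BSA library. *Ccl9* (ENSMUSG00000019122, chr11:83572919-83578636, -) fell least. It had 131.0, 132.5, 102.8 and 125.9 in BSA and 95.05, 93.5, 85.0 and 61.4 in PAL, a log2 fold change of -0.56 (SE 0.18, Padj = 0.020). None of these libraries belonged to the comparisons named for its choice, but the members were listed with results of these data known. The groups did not overlap, but the call rested on the lowest PAL library, since without it the log2 fold change was -0.43 and Padj 0.153.

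The neutrophil attractants had the largest falls. *Cxcl5* (ENSMUSG00000029371, chr5:90759360-90761624, +) had normalized counts of 10684, 9840, 9463 and 9620 in BSA and only 924.1, 820.8, 978.4 and 850.4 in PAL. This left 9.02% of the carrier level (log2 fold change -3.47, SE 0.06), with a Padj too small for the software to represent. *Cxcl1* (ENSMUSG00000029380, chr5:90891241-90893115, +) went from 633.8, 661.5, 619.5 and 684.7 to 158.4, 174.0, 128.6 and 157.8, or 23.8% of the carrier level (log2 fold change -2.06, SE 0.10, Padj = 4.57e-84). *Cxcl2* (ENSMUSG00000058427, chr5:90903871-90905938, +), which holds the same κB match as *Cxcl1* in the sequences above, was scarce. Its values of 22.3, 30.9, 39.7 and 31.1 in BSA fell to 10.6, 6.04, 3.35 and 1.55 in PAL (log2 fold change -2.62, SE 0.48, Padj = 2.95e-06). *Cxcl1* and *Cxcl2* are closely related in sequence, and reads that fit both could be lost or split by the authors' counting.

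Of the membrane-anchored chemokines, *Cxcl16* (ENSMUSG00000018920, chr11:70453983-70459984, -) fell from 241.5, 250.5, 191.2 and 270.2 to 117.5, 108.6, 109.6 and 106.5 (log2 fold change -1.10, SE 0.14, Padj = 1.07e-12). The palmitate libraries were tightly grouped below all carrier libraries. *Zmynd15* overlaps *Cxcl16* on the other strand, with the same limit as above. *Cx3cl1* (ENSMUSG00000031778, chr8:94772009-94782427, +) had 16.3, 16.4, 16.2 and 5.66 in BSA and 5.28, 9.05, 3.35 and 3.89 in PAL. Here the groups overlapped through the last BSA library and the test was not passed (log2 fold change -1.37, SE 0.57, Padj = 0.108), although it was with edgeR (Padj = 0.0900), without BSA library 4 (Padj = 0.0561) or without PAL library 2 (Padj = 0.0742). *Cxcl12* (ENSMUSG00000061353, chr6:117168535-117181367, +) was at the limit of detection. It had 6 counts in all 24 libraries, at most 2 in any one, and was below the minimum of 25 counts in every fit that applied it.

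**Figure D1:**
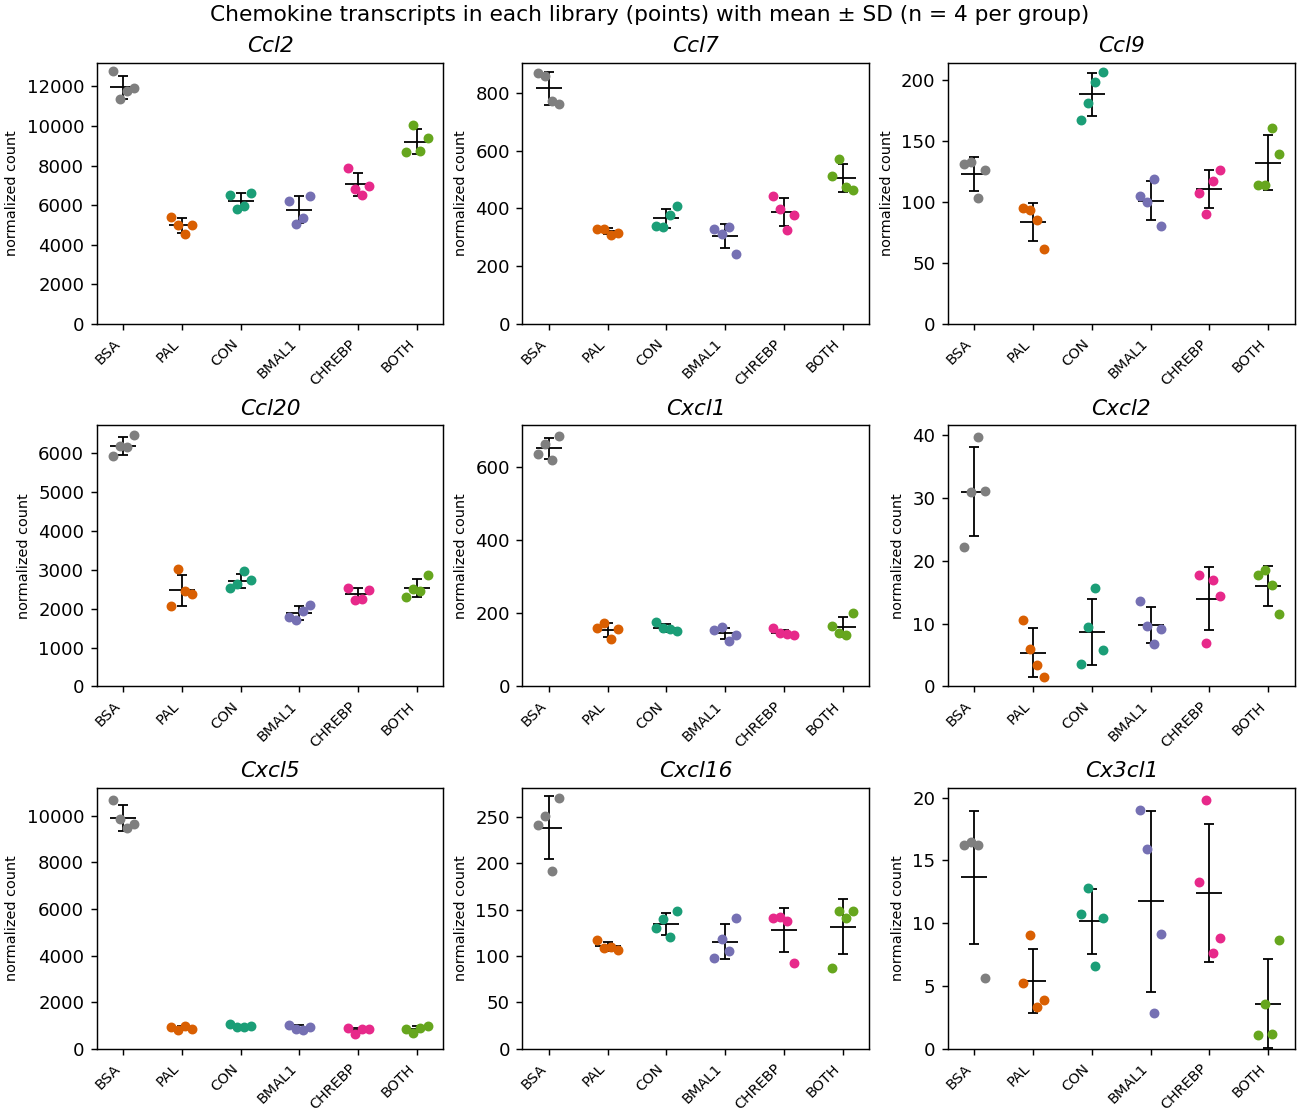
Normalized counts (y axis, linear from 0, scaled separately per gene) of 9 chemokine genes in the 6 groups (x axis). Points are the 4 libraries of a group and black bars the mean ± SD, and *Cxcl5* can be seen near 9902 in BSA and between 640 and 1052 in every palmitate group.

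The transcripts of the other chemokine ligands were examined alongside. Of 27 further ligand genes, 10 had enough counts to be tested in PAL against BSA, and 3 were lower and none higher. Those were *Ppbp*, which encodes another CXCR2 ligand (log2 fold change -1.01, SE 0.14, Padj = 1.34e-11), *Cxcl17* (-0.86, SE 0.12, Padj = 1.86e-10) and the CXCR2 ligand *Cxcl3*, named after its values were seen, with means of 88.0 in BSA and 12.6 in PAL. The median of the 10 was -0.12.

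Genes of the NF-κB subunits and their feedback inhibitors moved in the same comparison. Of 18 tested, 10 were lower and none was higher, where 7.6% of all genes tested were lower and 853 of 12827 higher. The median log2 fold change of the 18 was -0.29. The lowest Padj values were those of *Zc3h12a*, an RNase that degrades inflammatory transcripts (log2 fold change -1.33, SE 0.18, Padj = 2.15e-11), *Nfkbia*, which encodes IκBα (-0.58, SE 0.10, Padj = 5.22e-08), and *Nfkbie*, which encodes IκBε (-0.81, SE 0.14, Padj = 2.78e-07). Among 13 genes of upstream inflammatory inputs, *Il33*, an alarmin, was higher (0.51, SE 0.11, Padj = 0.000139) and 2 were lower, including the TNF receptor gene *Tnfrsf1a* (-0.17, SE 0.07, Padj = 0.0815). In the same comparison the leukocyte list fell through *Cd14* (-0.54, SE 0.08, Padj = 2.07e-10), while *Adgre1*, *Clec4f*, *Cd5l* and *Cd3e* stayed at 0. Of 13 hepatocyte markers, 6 were lower and 2 higher, at a list median of -0.30. They included *Apoe* (-0.92, SE 0.07, Padj = 2.63e-41), *Trf* (-0.58, SE 0.06, Padj = 1.53e-17) and *Krt18* (0.45, SE 0.05, Padj = 3.92e-17). Of the 4 bile duct markers tested, *Spp1* was lower (-0.48, SE 0.05, Padj = 2.01e-17) and *Krt19* higher (0.53, SE 0.08, Padj = 7.72e-09). Of 8 stellate cell and fibroblast markers, 4 had no count in any library and 2 could be tested, of which *Des*, named after its values were seen, was lower (means of 7.57 in BSA and 1.25 in PAL, -2.59, SE 0.94, Padj = 0.0521). The 6 endothelial markers had too few counts to test, and *Cdh5*, *Kdr* and *Tek* had none. The part of these markers in the chemokine values was not tested.

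Transcripts of proteins that shed or anchor chemokines were present, whereas those of chemokine receptors were at or near 0. The sheddase genes *Adam10* and *Adam17* averaged 772 and 169 normalized counts, and neither was among the 3 genes of the 12 tested on that list that passed in PAL against BSA. These were the proteoglycan and heparan sulfate genes *Sdc2* (log2 fold change -0.28, SE 0.09, Padj = 0.0266), *Ext1* (-0.23, SE 0.08, Padj = 0.0367) and *Hs6st1* (-0.20, SE 0.08, Padj = 0.0939). Of 22 receptor genes, at most 2, the atypical receptors *Ackr2* and *Ackr3*, could be tested in any comparison, with none called by DESeq2 or edgeR (at most 1 at an unadjusted p under 0.05 per comparison). *Ccr1*, *Ccr2*, *Ccr6*, *Cxcr2*, *Cxcr4* and *Cxcr6* had no count in any of the 24 libraries.

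Few members passed the test after transfection of the control esiRNA. Of the 8 members other than *Ccl9* that were tested in CON against PAL, 1 was higher, where 1.59% of all genes tested were higher, and none was lower. It was *Ccl2*, with 6523, 5787, 5945 and 6605 in CON, all above the highest PAL library (log2 fold change 0.32, SE 0.06, Padj = 8.01e-05; 0.27 to 0.36 when each library was left out in turn). *Ccl9* had 167.0, 180.7, 198.2 and 206.4 in CON, and every CON library was above every library of the other 5 groups. Its log2 fold change was 1.18 (SE 0.16), given without a test since the same CON libraries led to its choice. *Ccl20* did not pass (log2 fold change 0.13, SE 0.09, Padj = 0.658), although without the second PAL library it was 0.24 with Padj 0.0371. *Cxcl1* and *Cxcl5* were at 24.7% and 9.92% of the BSA mean, and their log2 fold changes were 0.05 (95% interval -0.21 to 0.31) and 0.14 (-0.01 to 0.28).

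Interferon-induced genes moved with the transfection. The mean log2 normalized count over 20 such genes was 2.94 in PAL and 6.21 in CON, where the first library had 4.35 and the others 6.06 to 7.23, and 16 of 19 tested were higher in CON. *Cxcl10*, an interferon-induced ligand of CXCR3, was higher by 4.10 on the log2 scale (SE 0.70, Padj = 2.01e-06), and 4 of 11 further ligands tested were higher. The part of this response in the values of *Ccl2* and *Ccl9* was not tested. *Ccl9* was 167.0 in the CON library with the lowest interferon score and 180.7 to 206.4 in the others. None of the 18 NF-κB and feedback genes was called by DESeq2 in CON against PAL (1 at an unadjusted p under 0.05, 0 with edgeR), and the median log2 fold change was -0.0031. Of 13 hepatocyte markers 2 were higher, *Apoe* (0.52, SE 0.07, Padj = 5.61e-10) and *Alb* (0.63, SE 0.16, Padj = 0.0105), and *Krt18* was lower (-0.15, SE 0.05, Padj = 0.0386), while of 4 bile duct markers *Sox9* was higher (0.20, SE 0.06, Padj = 0.0849), though not with edgeR. Their part in the chemokine values was not tested.

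**Figure D2:**
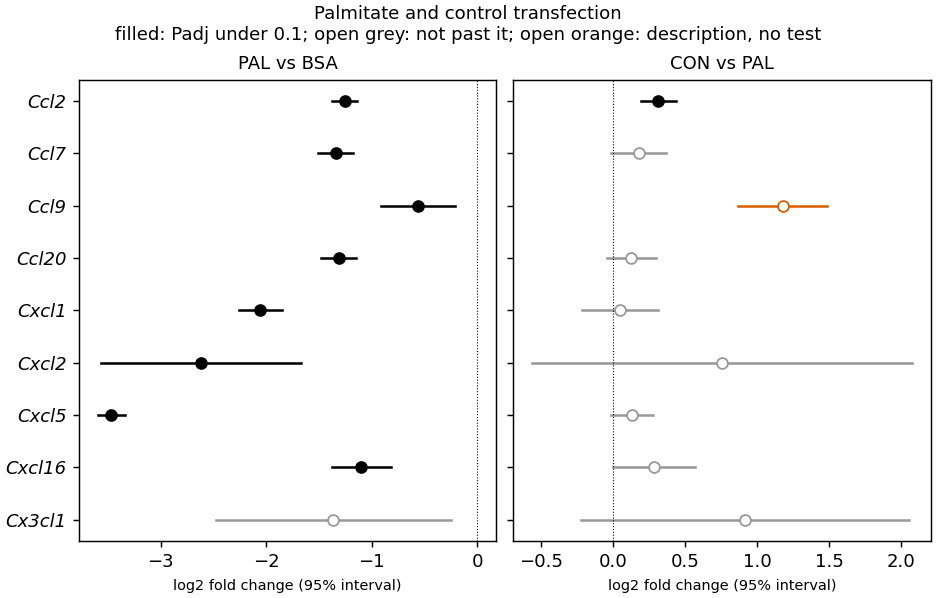
Log2 fold changes (x axis) of 9 chemokine genes in PAL against BSA (left) and CON against PAL (right), with 95% intervals. Filled symbols passed Padj under 0.1, grey open symbols did not, and the orange open symbol marks *Ccl9* in CON against PAL, described without a test; on the left the symbols run from -0.56 for *Ccl9* to -3.47 for *Cxcl5*.

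Under *Bmal1* esiRNA alone, *Ccl20* was lower. It had 1791, 1719, 1955 and 2099 in BMAL1 against 2522, 2648, 2962 and 2728 in CON, without overlap (log2 fold change -0.52, SE 0.08, Padj = 5.83e-07). It was the only call among the 8 members tested besides *Ccl9*, of which *Cxcl2* and *Cx3cl1* received no Padj, where 0.324% of all genes tested were lower. *Ccl9* had 104.5, 99.9, 118.7 and 80.4, all below the CON libraries, a log2 fold change of -0.90 (SE 0.16) that entered its choice. *Ccl7* had 328.5, 310.2, 335.2 and 242.2, all below the lowest CON library at 336.5, and did not pass (log2 fold change -0.27, SE 0.12, Padj = 0.529). *Ccl2* had a log2 fold change of -0.11 (95% interval -0.27 to 0.06). The interferon score was 4.70 in BMAL1 against 6.21 in CON, with 9 of 20 genes lower (4 with edgeR). The BMAL1 libraries scored 4.25 to 5.01, CON library 1 scored 4.35, within that range, and the other CON libraries scored 6.06 to 7.23. No gene of the NF-κB and feedback list was called by DESeq2 (0 at an unadjusted p under 0.05, 0 with edgeR). The hepatocyte marker *Ttr* was higher (0.46, SE 0.07, Padj = 5.83e-07). The part of these genes in the values of *Ccl20* was not tested.

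Under *Chrebp* esiRNA alone, none of the 8 members besides *Ccl9* passed the DESeq2 test (3 at an unadjusted p under 0.05, 0 called with edgeR), where 3.42% of all genes tested were called. *Ccl9* had 107.4, 90.4, 117.4 and 126.3, below all CON libraries, a log2 fold change of -0.77 (SE 0.15) that entered its choice; 0.771% of all genes tested were lower in this comparison. *Cxcl5* had 880.4, 639.6, 835.5 and 850.6 against 933.6 to 1052 in CON, without overlap, at a log2 fold change of -0.30 (SE 0.11, Padj = 0.151). It passed with the replicate block (Padj = 0.0278), when only CHREBP and CON were fitted (Padj = 0.0323), with all 24 libraries in the fit (Padj = 0.0715) and without BOTH library 2 or 4 (Padj 0.0531 and 0.0632). *Ccl2* and *Ccl20* had log2 fold changes of 0.18 (SE 0.08, Padj = 0.342) and -0.20 (SE 0.08, Padj = 0.231), the latter with Padj 0.0691 when only the 2 groups were fitted and 0.0954 without BOTH library 4. That of *Cxcl2*, at low counts, was 0.66 (SE 0.46, Padj = 0.675). By contrast, 4 of 13 further ligands were higher, led by *Cxcl9* (2.69, SE 0.41, Padj = 2.00e-08), *Cxcl10* (3.55, SE 0.57, Padj = 1.15e-07) and *Ccl5* (1.89, SE 0.31, Padj = 1.78e-07). Of 13 input genes, *Tlr3* (2.08, SE 0.36, Padj = 1.13e-06) and *Myd88* (0.77, SE 0.18, Padj = 0.00152) were higher. Of 18 NF-κB and feedback genes, *Rela* was higher (0.18, SE 0.06, Padj = 0.0550), with 0 called by edgeR. All 20 interferon-induced genes were higher, with a mean score of 9.34, and the bile duct marker *Krt7* was lower (-0.32, SE 0.11, Padj = 0.0989), a call not made by edgeR. Their part in the chemokine values was not tested.

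With both silencing reagents, at the same total dose as CON, the monocyte attractants were higher. *Ccl2* had 8688, 10029, 8720 and 9404 in BOTH against 5787 to 6605 in CON (log2 fold change 0.57, SE 0.08, Padj = 9.64e-10). *Ccl7* had 512.2, 571.9, 474.7 and 462.8 against 336.5 to 408.1 (log2 fold change 0.47, SE 0.11, Padj = 0.00114). All BOTH libraries lay above all CON libraries for both genes, and the means were 77.0% and 62.0% of the BSA mean. These were the 2 members called higher of the 8 besides *Ccl9*, where 5.99% of all genes tested were higher and 3.75% lower, and none of the 8 was called lower. Over all genes, the BOTH libraries differed more among themselves than those of other groups. Between pairs of BOTH libraries the chi-square per degree of freedom of the counts was 5.77 to 23.1, against 2.69 to 7.53 within the other groups. The esiRNA groups share a dispersion per gene, so this spread enters all their tests.

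The remaining members tested did not pass in the fit of the 16 esiRNA libraries, and *Ccl9* is given without a test. *Ccl20* had 2299, 2517, 2450 and 2871 in BOTH, a difference from CON of -0.10 on the log2 scale (95% interval -0.26 to 0.06, Padj = 0.574). *Cxcl1* had 165.9, 145.8, 140.9 and 199.7, with a log2 fold change of 0.02 (-0.24 to 0.28, Padj = 0.965). The log2 fold change of *Cxcl2*, at low counts, was 0.86 (SE 0.45, Padj = 0.303), with means of 27.8% of the BSA mean in CON and 51.6% in BOTH. *Cxcl5* and *Cxcl16* had log2 fold changes of -0.24 (SE 0.11, Padj = 0.213) and -0.03 (SE 0.17, Padj = 0.961). *Cxcl5* passed with the replicate block (Padj = 0.0704) and without BOTH library 4 (-0.32, Padj = 0.0392). *Ccl9* had 113.9, 114.0, 160.5 and 139.2, below all CON values and overlapping those of the single silencings, with a log2 fold change against CON of -0.52 (SE 0.15), given without a test. *Cx3cl1* was low in 3 of 4 BOTH libraries, with 1.11, 3.54, 1.15 and 8.64 (log2 fold change -1.45, SE 0.63, Padj = 0.168), at raw counts near the limit of detection. Without BOTH library 4, the highest of the group, it was -2.33 with Padj 0.0337.

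**Figure D3:**
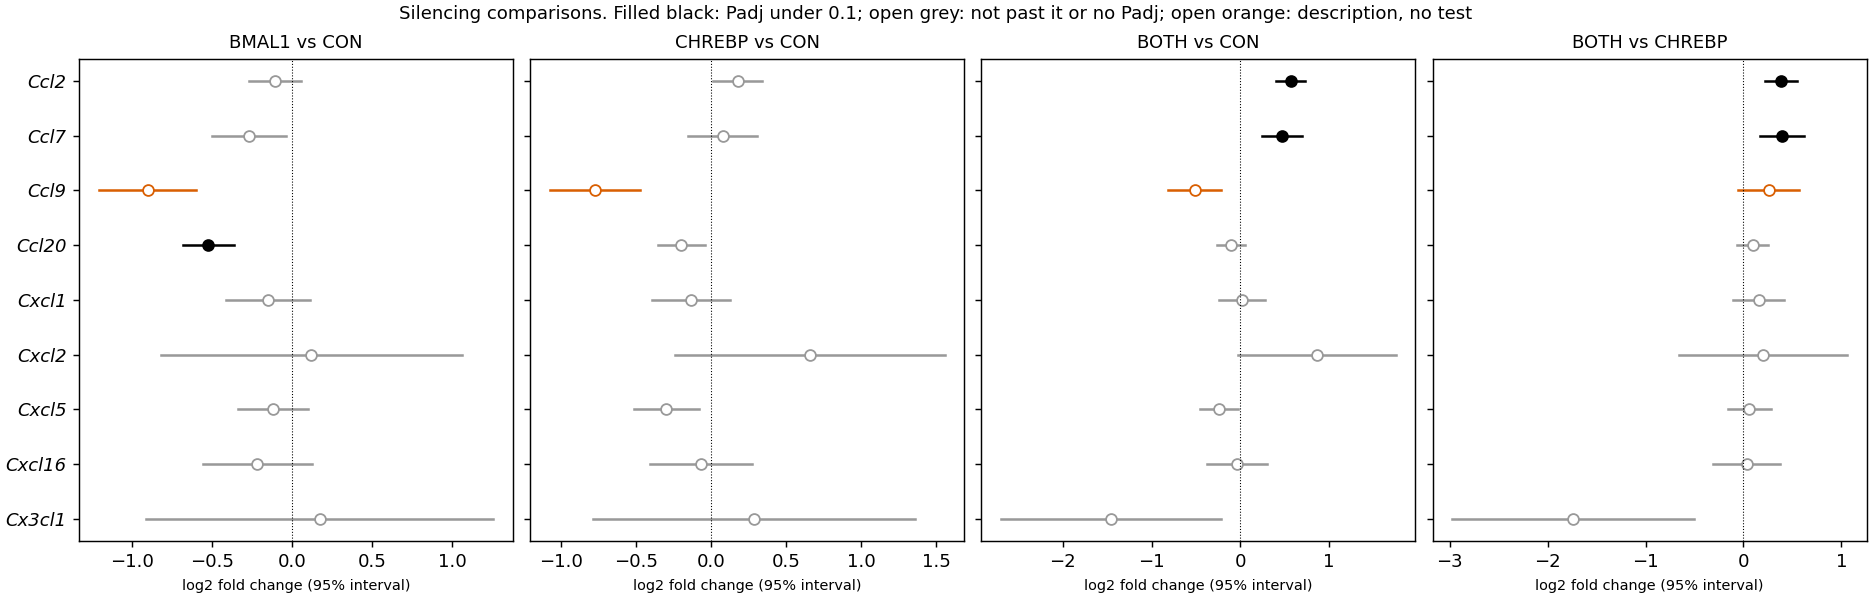
Log2 fold changes (x axis, scaled separately per panel) of 9 chemokine genes in 4 silencing comparisons, with 95% intervals. Filled symbols passed Padj under 0.1, grey open symbols did not or had no Padj, and orange open symbols mark *Ccl9*, described without a test; *Ccl2* and *Ccl7* are filled on the right of 0 in BOTH against CON (0.57 and 0.47) and in BOTH against CHREBP (both 0.39).

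In the same comparison 6 of 18 NF-κB and feedback genes were higher and none was lower, with a list median of 0.19 against -0.012 over all genes tested. They included the subunit genes *Nfkb1* (log2 fold change 0.31, SE 0.07, Padj = 0.000181) and *Rela* (0.23, SE 0.06, Padj = 0.00240) and the inhibitor gene *Tnfaip3* (0.34, SE 0.09, Padj = 0.00191). Of the inputs, *Tlr3*, a sensor of double-stranded RNA, and *Myd88*, an adaptor of Toll-like and interleukin-1 receptors, were higher, by 2.88 (SE 0.36, Padj = 1.52e-13) and 1.43 (SE 0.18, Padj = 5.49e-13), and *Il33* was lower (-0.52, SE 0.14, Padj = 0.00332). Of 13 further ligands, 4 were higher, including *Cxcl10*, *Cxcl9* and *Ccl5* by 4.73, 3.57 and 2.91 on the log2 scale, and 1 was lower. The lower one, named after its values were seen, was *Ppbp*, with means of 84.6 in BOTH and 138 in CON (-0.70, SE 0.19, Padj = 0.00465). The interferon score was 10.2 and all 20 genes were higher than in CON. The part of this response in the levels of *Ccl2* and *Ccl7* was not tested; in CHREBP, where the score was 9.34, the means of *Ccl2* and *Ccl7* were 59.0% and 47.4% of the BSA mean. None of the 3 leukocyte markers tested was called (0 at an unadjusted p under 0.05, 0 with edgeR), and the list's summed level was 71.2 to 98.7 CPM in BOTH and 77.2 to 86.4 in CON. Of the 13 hepatocyte markers, 4 were lower, including *Trf* (-0.28, SE 0.07, Padj = 0.00234) and *Apoe* (-0.31, SE 0.10, Padj = 0.0285), and *Foxa2* was higher (0.28, SE 0.09, Padj = 0.0282). The bile duct markers *Krt7* (-0.49, SE 0.11, Padj = 0.000281) and *Krt19* (-0.34, SE 0.09, Padj = 0.00318) were lower. Their part in the chemokine values was not tested.

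**Figure D4:**
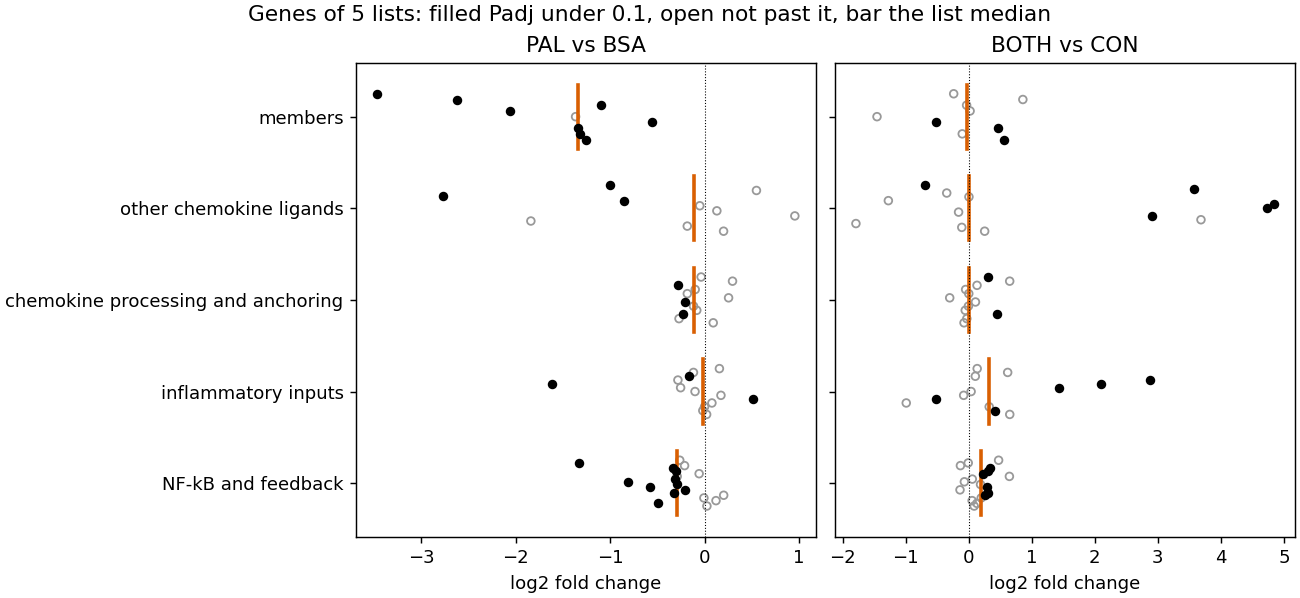
Log2 fold changes (x axis) of the tested genes of 5 lists (rows) in PAL against BSA (left) and BOTH against CON (right). Filled points passed Padj under 0.1, open points did not, and orange bars are list medians, which for the NF-κB and feedback list lie at -0.29 on the left and 0.19 on the right.

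Adding *Bmal1* esiRNA to *Chrebp* esiRNA raised *Ccl2*. In BOTH against CHREBP, whose libraries shared a plate column, *Ccl2* had a log2 fold change of 0.39 (SE 0.08, Padj = 0.00204), and the highest CHREBP library (7904) lay below the lowest BOTH library (8688). *Ccl7* had the same log2 fold change of 0.39 (SE 0.11, Padj = 0.0625) without overlap, but it did not pass with edgeR (Padj = 0.174) or without CHREBP library 2, 3 or 4 or BOTH library 1 or 2 (Padj 0.116 to 0.304), nor when only the 2 groups were fitted (Padj = 0.117). These were the 2 calls among the 8 members besides *Ccl9*, with 0.843% of all genes tested called higher. *Cxcl2* and *Cx3cl1* received no Padj. *Cx3cl1* had the largest change in size of the 8 and the opposite sign (-1.74, SE 0.63, unadjusted p = 0.00562 in DESeq2's Wald test), in overlapping groups at low counts. *Ccl20* and *Cxcl1* had log2 fold changes of 0.09 (95% interval -0.06 to 0.25) and 0.16 (-0.11 to 0.42). Of the 20 interferon-induced genes DESeq2 called none (6 at an unadjusted p under 0.05, 1 with edgeR), at a list median of 0.86, and *Ccl5* was the 1 call among 13 further ligands (1.02, SE 0.30, Padj = 0.0601). Of 13 input genes 1 was higher, as was 1 of 18 NF-κB and feedback genes, with 0 of either called by edgeR. Of 12 genes that shed or anchor chemokines 1 was lower, where 21 of 13883 genes tested were lower. The part of these genes in the chemokine values was not tested. The doses differ here, with 100 nM in CHREBP and 200 nM in BOTH.

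Adding *Chrebp* esiRNA to *Bmal1* esiRNA raised 3 members, at 200 nM against 100 nM in total, where 6.35% of all genes tested were higher. In BOTH against BMAL1 the log2 fold changes were 0.67 for *Ccl2* (SE 0.08, Padj = 6.80e-14), 0.74 for *Ccl7* (SE 0.12, Padj = 1.71e-08) and 0.42 for *Ccl20* (SE 0.08, Padj = 1.01e-05). The libraries of the 2 groups did not overlap for any of these genes, with no share over all genes given. *Cx3cl1* was lower (-1.63, SE 0.63, Padj = 0.0924; 4.08% of all genes tested were lower), in overlapping groups. That call was lost with edgeR (Padj = 0.153), with the replicate block (Padj = 0.109), without the filter on low counts (Padj = 0.111), when only the 2 groups were fitted (Padj = 0.260) and without any one CON library, BMAL1 library 2 or 4, CHREBP library 1 or BOTH library 1, 2 or 3 (Padj 0.1003 to 0.269). *Ccl9* had a log2 fold change of 0.38 (SE 0.16), in overlapping groups. Of the other lists, all 20 interferon-induced genes were higher, with a median of 5.66, and so were 7 of 18 NF-κB and feedback genes, with the lowest Padj for *Tnfaip3* (0.46, SE 0.09, Padj = 7.71e-06). Of 13 further ligands, 4 were higher, including *Cxcl10* (6.38, SE 0.57, Padj = 2.37e-26). Of 13 input genes 6 were higher, and of 12 genes that shed or anchor chemokines 1 was higher and 2 lower. Of 13 hepatocyte markers, 5 were lower, including *Ttr* (-0.49, SE 0.07, Padj = 7.51e-10), and 1 was higher. The bile duct markers *Krt19* (-0.32, SE 0.09, Padj = 0.00590) and *Sox9* (-0.21, SE 0.07, Padj = 0.0301) were lower, of 4 tested. The part of these genes in the values of *Ccl2*, *Ccl7* and *Ccl20* was not tested.

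At equal dose, 3 of the 8 members tested besides *Ccl9* were called between the 2 single silencings, and the call of *Ccl20* alone held in every fit run. In CHREBP against BMAL1, *Ccl20* was higher (log2 fold change 0.33, SE 0.08, Padj = 0.00348), with 2235 to 2538 against 1719 to 2099. *Ccl2* was higher by 0.29 (SE 0.08, Padj = 0.0249) and *Ccl7* by 0.34 (SE 0.12, Padj = 0.0958), where 2.9% of all genes tested were higher. The call of *Ccl7* was lost with edgeR (Padj = 0.136), with the replicate block (Padj = 0.133), without the filter on low counts (Padj = 0.102) and without CON library 1, 2 or 3, BMAL1 library 2 or 4, CHREBP library 1, 2 or 4 or BOTH library 1 or 3 (Padj 0.109 to 0.437). That of *Ccl2* was lost without BMAL1 library 2 or 3 or CHREBP library 1 (Padj 0.187, 0.146 and 0.229). For *Ccl9* the log2 difference was 0.13 (95% interval -0.19 to 0.44). Of the 13 other chemokine ligands tested, 4 were higher, among them the interferon-inducible *Cxcl10* (5.20, SE 0.57, Padj = 5.31e-17), *Cxcl9* (3.79, SE 0.46, Padj = 5.50e-14) and *Cxcl11* (4.46, SE 0.66, Padj = 2.34e-09). All 20 interferon-induced genes were higher as well, and the hepatocyte markers *Ttr* (-0.60, SE 0.07, Padj = 1.71e-14) and *Apoe* (-0.36, SE 0.10, Padj = 0.0170) were lower. Their part in the values of *Ccl20*, *Ccl2* and *Ccl7* was not tested. These 2 groups stood in different columns and rows of the plate, which cannot be told apart from the target.

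The effect of *Bmal1* esiRNA differed with and without *Chrebp* esiRNA for 3 of the 8 members besides *Ccl9*, of which *Cxcl2* and *Cx3cl1* received no Padj. The interaction, that is the log2 fold change of BOTH against CHREBP minus that of BMAL1 against CON, was 0.62 for *Ccl20* (SE 0.11, Padj = 0.000302), 0.49 for *Ccl2* (SE 0.12, Padj = 0.00874) and 0.66 for *Ccl7* (SE 0.16, Padj = 0.0120), where 1.2% of all genes tested had a positive call. *Ccl20* had an estimated effect of *Bmal1* esiRNA of -0.52 without and 0.09 with *Chrebp* esiRNA, while *Ccl2* went from -0.11 to 0.39 and *Ccl7* from -0.27 to 0.39. For *Ccl9* the corresponding values were -0.90 and 0.26, a description because the first led to its choice. The neutrophil attractants had smaller interactions that did not pass, 0.30 for *Cxcl1* (SE 0.19, Padj = 0.704) and 0.18 for *Cxcl5* (SE 0.16, Padj = 0.842). That of *Cxcl2*, also at low counts, was 0.08 (SE 0.65). *Cx3cl1*, at low counts, had the largest in size and in the opposite direction, -1.92 (SE 0.84, unadjusted p = 0.0220 in DESeq2's Wald test). Since CON had a larger dose than BMAL1 and BOTH a larger dose than CHREBP, dose and interaction cannot be told apart. In a likelihood ratio test over the 4 esiRNA groups, the test the study used for these libraries, *Ccl2*, *Ccl7* and *Ccl20* passed among the members besides *Ccl9* (Padj = 6.93e-15, 2.14e-07 and 5.09e-08), where 9.92% of all genes tested passed. Of the 20 interferon-induced genes, 15 had a positive interaction that passed (13 with edgeR), with a list median of 2.75, and that of *Usp18* was 3.77 (SE 0.80, Padj = 0.00186). The interaction also passed for *Cxcl10* (2.83, SE 0.81, Padj = 0.0379) and *Cxcl9* (1.98, SE 0.62, Padj = 0.0713). The part of these genes in the interactions of *Ccl20*, *Ccl2* and *Ccl7* was not tested.

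**Figure D5:**
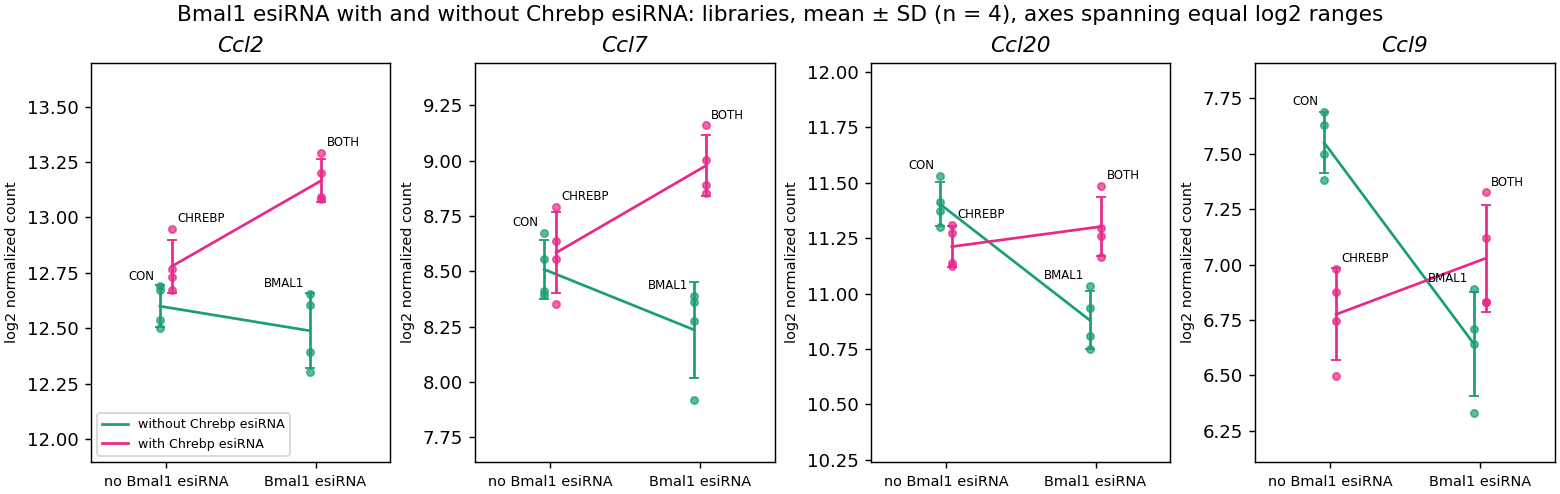
Log2 normalized counts (y axes of equal span) of 4 CC chemokine genes without and with *Bmal1* esiRNA (x axis), without *Chrebp* esiRNA (green, CON and BMAL1) and with it (pink, CHREBP and BOTH). Points are libraries and bars the mean ± SD of 4; the lines cross or diverge, with interactions of 0.49, 0.66 and 0.62 for *Ccl2*, *Ccl7* and *Ccl20*.

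Across the 6 groups the levels of *Ccl9* ran, by mean normalized count ± SD (n = 4), from PAL (83.7 ± 15.5) over BMAL1 (101 ± 15.8), CHREBP (110 ± 15.4), BSA (123 ± 13.8) and BOTH (132 ± 22.5) to CON (188 ± 17.7). Neighbours in this order overlapped in their libraries except for BOTH and CON. This order differed from that of the other members, of which the 8 tested had their highest mean in BSA. The falls from CON to BMAL1 and CHREBP entered the choice of *Ccl9*, so its high place in CON is partly built in. The order, and the likeness below that uses the same means, are descriptions. The genes closest to *Ccl9* over the 6 group means were *Abraxas1*, *Rps18-ps4*, *AI413582*, *Vps8* and *Nsun3*, with root mean square differences of centred log2 means of 0.212 to 0.243 among 9379 genes compared. The median gene was at 0.380, and *Ccl9* itself had an SD of 0.363 over the 6 means, so even the nearest genes followed it loosely. *Abraxas1*, for example, had 55.1 in PAL and 82.9 in CON.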

How the data were processed

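RNA of 24 AML-12 cultures (6 groups of 4) was sequenced by BRB-seq, a pooled method that reads the 3′ end of transcripts. The authors deposited raw counts per gene; the submitters' processing notes name STAR, HTSeq, featureCounts and mm10, with no versions, and whether molecular identifiers or strand were used is not given in the sources used here. The 5 summary lines of HTSeq were left out of library sizes (24.9% to 28.0% not aligned, 5.11% to 6.47% without a feature). Groups follow the labels.

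DESeq2 1.42.0 (R 4.3.3) was run on the counts, keeping genes whose counts summed to 25 or more. PAL against BSA and CON against PAL were each fitted on 8 libraries and the esiRNA comparisons on all 16 esiRNA libraries, with Wald tests, Benjamini-Hochberg adjustment over all genes and a threshold of Padj under 0.1. The count minimum, the threshold and the Wald test of PAL against BSA follow the study's methods. For the esiRNA groups the study used a likelihood ratio test and then a fold change cut, which was not applied here. Intervals are the estimate ± 1.96 SE. edgeR 4.0.16 (quasi-likelihood), TMM size factors, no filter, a replicate block, all 24 libraries, only the 2 groups compared and leaving out each library were alternatives. The fits were tested on simulated data.

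Gene symbols, identifiers and coordinates are from the deposited table and GENCODE M21 (GRCm38, the sequence of mm10), which held 55141 of the identifiers. The members and gene lists were chosen with earlier results of these data known. All 10 members were named; of each other list, at most the 3 genes with the lowest Padj past the threshold and a mean of at least 50 normalized counts per comparison; and the 5 genes most like *Ccl9*. Interferon scores are mean log2(normalized count + 1).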

Additional observations from a re-analysis of the deposited data

Results flagged for a closer look

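For 4 of 57 sets of 4 libraries, 1 library stood apart from the other 3 by Dixon's criterion, which chance alone meets in about 1 of 20. *Cxcl16* was 93.0 normalized counts in the fourth CHREBP library, where the others had 138 to 142, and 87.4 in the first BOTH library, where the others had 141 to 149. *Cx3cl1* was 5.66 in the fourth BSA library against 16.2 to 16.4 in the others. *Cxcl12* was 1.01 in the second PAL library, a single read, and 0 in the others.

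The effect of *Bmal1* esiRNA differed with and without *Chrebp* esiRNA by the interaction term for *Ccl2* (0.49), *Ccl7* (0.66) and *Ccl20* (0.62, all on the log2 scale).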

How the results depend on the processing

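*Ccl9* was counted in PAL against BSA alone. Under the alternatives that kept all libraries of the groups compared, the number of members called stayed within 1.5 times of that reported except in 2 comparisons. In CHREBP against CON it was 0 as reported, 1 (*Cxcl5*) with the replicate block and with all 24 libraries, and 2 (*Cxcl5* and *Ccl20*) when only the 2 groups were fitted. In BOTH against CHREBP it was 2, and 1 (*Ccl2*) with edgeR and with only the 2 groups. Leaving out each library in turn gave 7 to 9 in PAL against BSA, 1 to 2 in CON against PAL, 1 each time in BMAL1 against CON, 0 to 2 in CHREBP against CON, 2 to 4 in BOTH against CON, 1 to 2 in BOTH against CHREBP, 3 to 4 in BOTH against BMAL1, 1 to 3 in CHREBP against BMAL1, 3 each time for the interaction and 3 to 5 in the likelihood ratio test. The libraries that moved a number past 1.5 times were PAL 2 in CON against PAL (2, with *Ccl20*), BOTH 2 and 4 in CHREBP against CON (1 and 2), BOTH 4 in BOTH against CON and in the likelihood ratio test (4 and 5, with *Cxcl5* and *Cx3cl1*), CHREBP 2, 3 and 4 and BOTH 1 and 2 in BOTH against CHREBP (1), and BMAL1 2 and CHREBP 1 in CHREBP against BMAL1 (1). No call changed direction.

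Signs of values that were not called turned when a library was left out. The log2 fold change of *Cxcl2* ranged from -0.134 to 0.565 in BMAL1 against CON, from -0.0376 to 0.332 in BOTH against CHREBP and from -0.366 to 0.333 for the interaction. That of *Cxcl16* ranged from -0.0972 to 0.116 in BOTH against CON, from -0.118 to 0.0573 in CHREBP against CON and from -0.0897 to 0.179 in BOTH against CHREBP. That of *Cx3cl1* ranged from -0.140 to 0.509 in BMAL1 against CON, from -0.0458 to 0.469 in CHREBP against CON and from -0.222 to 0.429 in CHREBP against BMAL1. That of *Cxcl1* ranged from -0.0922 to 0.0838 in BOTH against CON, from -0.0501 to 0.0724 in CHREBP against BMAL1 and from -0.0295 to 0.109 in CON against PAL, and that of *Cxcl5* from -0.0366 to 0.156 in BOTH against CHREBP. The cause was not tested.

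Libraries with the same replicate number did not deviate together: over the 15 pairs of groups the correlations averaged 0.0177 (range -0.280 to 0.320), and in 0 pairs of groups were all above 0.1, so the numbers were not taken as a pairing. With the replicate block, 2 single-gene results gained a call, *Cxcl5* in CHREBP against CON (Padj = 0.0278) and in BOTH against CON (Padj = 0.0704), and 2 lost one, *Cx3cl1* in BOTH against BMAL1 (Padj = 0.109) and *Ccl7* in CHREBP against BMAL1 (Padj = 0.133). Low counts limit *Cxcl2*, *Cx3cl1* and *Cxcl12*.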
